A study of Homo sapiens with 15 samples.

Results

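The 44 human genes that encode collagen chains were followed in 2 senescent cell lines in which a short hairpin RNA against THBD had been expressed. THBD encodes thrombomodulin, the thrombin-binding protein of the cell surface, and the study asked whether cells need it to become senescent. The members were the rows named COL, a number, A and a number that stood in both deposited count tables. They made up 44 of 59428 genes in the IMR90 table and 44 of 59412 genes in the Huh7 table. By the structure they build, 11 were fibrillar, 8 belonged to basement membranes, 5 to collagen VI and 20 to other classes.

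Collagen chains share a repeat of glycine with a pair of other residues, and 3 chains wind around each other to form a triple helix. Fibrillar collagens assemble outside the cell into the cross-striated fibrils that give tissue its tensile strength, and types I and III are the main fibrils of scarred lung and liver. Collagen IV forms the sheet-like network of basement membranes, and collagen VI forms beaded filaments that lie between fibrils and basement membranes. Fibroblasts are the main source of fibrillar collagen in lung, whereas hepatocytes make little of it.

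IMR90, a lung fibroblast line, carried HRAS G12V, an activated RAS oncogene, as the inducer of senescence in all 9 libraries. Of these, 3 libraries were titled shTHBD21, shTHBD22 and shTHBD23, here set 2, and 3 were titled shTHBD11, shTHBD12 and shTHBD13, here set 1, all with shTHBD as the labelled genotype. The other 3 held a non-targeting hairpin (shNTC1, the control). Huh7, a hepatocyte-derived carcinoma line, was made senescent with palbociclib, a drug that blocks the cell-cycle kinases CDK4 and CDK6, in all 6 libraries: 3 shTHBD libraries titled 53925 and 3 controls with a non-targeting hairpin. Doses and times of induction are not in the labels used here. The growth protocol also describes senescence of IMR90 by long passage, without saying whether it applies here, and the meaning of the digit that separates the sets is not given. Each line is 1 cell line, and nothing in the labels says that the libraries of a group came from separate cultures. The p-values below therefore measure only the spread between libraries, which may be technical.

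Libraries held 18256773 to 21509229 gene counts in IMR90, 22479132 to 25236178 in Huh7 shTHBD and 19328182 to 20020683 in the Huh7 control. Levels are given in CPM, counts scaled to a common library total. THBD stood at 10.5, 11.5 and 11.4 CPM in set 2, at 39.4, 36.6 and 37.3 CPM in libraries labelled set 1, and at 16.5, 18.8 and 20.0 CPM in the control. It was below control in set 2 (log2 fold change −0.81 ± 0.0905 SE, edgeR adjusted p = 1.5e-12) and above control in libraries labelled set 1 (1.09 ± 0.0764, adjusted p = 1.2e-20), against that label. No direction reported for libraries labelled set 1 follows a fall of THBD. In Huh7, THBD had 0 counts in every shTHBD library and a mean of 0.103 CPM in the control, so a fall was not detectable at this depth. Labels disagree for replicate 3 of set 2, where the description gives Huh7 and the remaining fields IMR-90. That library held 2249 CPM of COL6A3, a gene with at most 0.0396 CPM in any Huh7 library, and without it 27 rather than 28 collagens were called in set 2 against control.

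The labelled cell types carried most of their defining markers. Of 9 fibroblast markers, 8 reached 10 CPM in every IMR90 group, S100A4 being the exception, and 9 of 9 hepatocyte markers reached 10 CPM in both Huh7 groups. The fibroblast markers VIM, LUM and FBN1 also reached 10 CPM in both Huh7 groups. LUM averaged 372 CPM in Huh7 shTHBD and 272 CPM in the Huh7 control. In IMR90 it averaged 138 CPM in set 2, 21.1 CPM in libraries labelled set 1 and 26.6 CPM in the control. Smooth muscle and stellate cell markers summed to 75.2 to 80.6 CPM in set 2, 35.6 to 41.0 CPM in libraries labelled set 1 and 44.3 to 52.6 CPM in the control. Within that list ACTA2 averaged 27.8 CPM in set 2, 23.5 CPM in libraries labelled set 1 and 24.9 CPM in the control, and LRAT was at 0 in set 2. CNN1 averaged 30.2 CPM in set 2, 13.1 CPM in libraries labelled set 1 and 15.7 CPM in the control. RGS5 averaged 20.1 CPM in set 2, 1.93 CPM in libraries labelled set 1 and 8.38 CPM in the control. Hepatocyte markers in IMR90 summed to 132 to 142 CPM in libraries labelled set 1, through SERPINA1 at 134 CPM, with APOB, TTR and FGB at 0, against 11.5 to 13.2 CPM in set 2 and 15.9 to 17.9 CPM in the control. Epithelial markers, through KRT8 and KRT18, summed to 86.7 to 89.8 CPM in set 2, 92.2 to 98.3 CPM in libraries labelled set 1 and 80.7 to 90.3 CPM in the control, and in no IMR90 group did a leukocyte or endothelial marker reach 10 CPM. Fibroblast markers, none of them a collagen, summed to 4596 to 4696 CPM in set 2, 3629 to 3738 CPM in libraries labelled set 1 and 4057 to 4149 CPM in the control. VIM made up most of these sums, at 3424 CPM in set 2, 2717 CPM in libraries labelled set 1 and 2991 CPM in the control. THY1, PDGFRA, PDGFRB and FAP averaged less in set 2 (206, 92.6, 51.0 and 99.7 CPM) than in the control (376, 141, 64.6 and 122 CPM). Means of VIM, DCN, LUM, FBN1 and S100A4 went the other way. The part of any of these markers in the collagen results was not tested.

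Of the 44 collagens, 22 reached a mean of at least 10 CPM in an IMR90 group, 5 reached 1 to 10 CPM, and 17 stayed under 1 CPM in every group. The 17 were COL2A1, COL4A3, COL4A4, COL6A5, COL6A6, COL9A1, COL9A2, COL9A3, COL14A1, COL15A1, COL19A1, COL20A1, COL21A1, COL23A1, COL25A1, COL26A1 and COL28A1, whose highest group means lay between 0.0181 and 0.782 CPM. After the filter on low counts 31 were tested, and 13 of the 17 were not. A gene is named as higher, lower, risen, fallen or called only where edgeR's quasi-likelihood test gave a Benjamini-Hochberg adjusted p under 0.05 over all genes tested in that line. Errors stand for the SD over 3 libraries beside levels and for the SE beside log2 fold changes. The spread between replicates was small, with a common biological coefficient of variation of 3.13%, and differences as small as 0.11 on the log2 scale were called.

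In set 2, 9 of the 10 fibrillar genes tested were higher and the 3 collagen VI genes tested were lower. Against the control, 15 tested collagens were higher (COL1A2 and COL11A1 by over 4-fold) and 13 were lower, among them all 3 tested chains of collagen VI. Over all 15411 genes tested, 33.2% were called higher and 34.1% lower in this comparison, against 48.4% and 41.9% of the 31 collagens. By at least 2-fold, 9 collagens were higher and 6 lower, against 7.96% and 9.79% of all genes. The median log2 fold change of the tested collagens was 0.20, beside 0.0069 for all genes tested. Each of the 28 called collagens had set 2 libraries that did not overlap the control. Overlap was not counted over all genes, so nothing particular to collagens follows from this number. Collagens that passed the filter only through the group in which they were high had to differ, so these shares describe the tested genes and not the 44.

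In libraries labelled set 1, most tested collagens were lower than in the control. The control libraries are those used for set 2, so the comparisons are not independent, and THBD was not lowered here. Here 21 were lower and 4 higher, against 26.5% and 27.3% of all genes tested. By at least 2-fold 6 were lower and 1 higher, against 4.33% and 3.79% of all genes. As for set 2, these shares describe the tested genes and not the 44, because of the filter. The collagen median was −0.57 and that of all genes −0.0019. Of the 25 called, COL5A3 alone had overlapping groups, again with no count over all genes beside it. Fold changes are those of the fit, whose scaling factors were 1.05 to 1.06 in set 2, 0.954 to 0.957 in libraries labelled set 1, with control factors of 0.993 to 0.994, so ratios of the CPM values printed here come out slightly larger for rises in set 2.

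**Figure D1:**
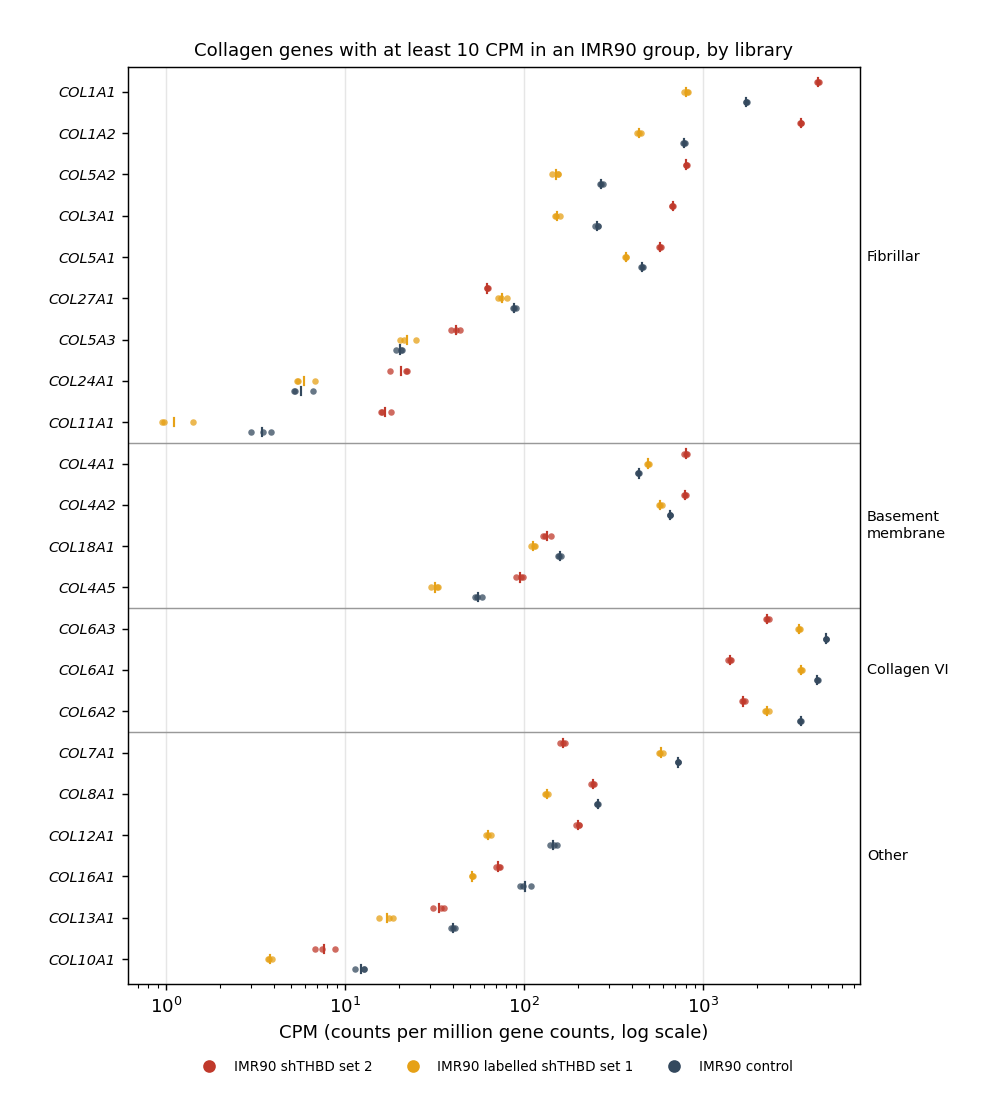
CPM of each IMR90 library on a log axis for the 22 collagens that averaged 10 CPM or more in some group, ordered by class; points are libraries and ticks are group means (n = 3 each). Set 2 stands to the right of the control for COL1A1 (4397 against 1744 CPM) and to its left for COL6A1 (1409.8 against 4352 CPM).

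Among the fibrillar genes, 9 of the 10 tested were higher in set 2 and COL27A1 was lower, against 33.2% and 34.1% of all genes tested. Collagen I, the chief fibril of scars, is a trimer of chains from COL1A1 (chr17:50184101-50201632, GRCh38, minus strand) and COL1A2 (chr7:94394895-94431227, plus strand). COL1A1 had 4436, 4357 and 4399 CPM in set 2, 824, 785 and 816 CPM in libraries labelled set 1, and 1736, 1739.8 and 1757 CPM in the control. The 3 groups were far apart, with set 2 highest and libraries labelled set 1 lowest. COL1A1 rose 2.38-fold in set 2 (log2 fold change 1.25 ± 0.0180, adjusted p = 3.8e-62) and fell by 1.05 ± 0.0185 on the log2 scale in libraries labelled set 1 (adjusted p = 6.7e-56). COL1A2 had 3549.6, 3531 and 3505 CPM in set 2, 449.8, 426 and 439 CPM in libraries labelled set 1, and 793, 787 and 775 CPM in the control. It kept the order of COL1A1 with a wider gap: it rose 4.24-fold in set 2 (2.08 ± 0.0198) and fell by 0.79 ± 0.0203 in libraries labelled set 1.

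COL3A1, whose collagen forms thin fibrils with collagen I, and COL5A1 and COL5A2, chains of collagen V, which starts fibrils and sets their width, were higher than control in set 2 and lower than control in libraries labelled set 1, as COL1A1 and COL1A2 were. COL3A1 had 676, 682 and 673 CPM in set 2, 159.5, 151 and 150.2 CPM in libraries labelled set 1, and 258, 249 and 259 CPM in the control. COL5A2, its neighbour on chromosome 2, had 801, 813 and 799.9 CPM in set 2, 156, 156 and 143 CPM in libraries labelled set 1, and 265, 278 and 268 CPM in the control. Neither gene's groups overlapped. COL3A1 rose 2.50-fold (1.32 ± 0.0261) and COL5A2 2.81-fold (1.49 ± 0.0263) in set 2, with log2 fold changes of −0.68 ± 0.0284 and −0.78 ± 0.0289 in libraries labelled set 1. COL5A1, the main chain of collagen V, moved less: 578, 569 and 583 CPM in set 2, 371, 367 and 373 CPM in libraries labelled set 1, and 458, 451 and 463 CPM in the control. Its groups were still apart (0.25 ± 0.0235 in set 2 and −0.25 ± 0.0240 in libraries labelled set 1), with adjusted p of 1.2e-14 or lower for all 3 genes in both comparisons. Exons of COL1A1 and COL5A1, and those of COL5A3 and COL16A1 described below, overlap genes on the opposite strand, and the counting command gives no strand option, so reads of the partners cannot be told apart.

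The scarcer fibrillar genes were led by COL11A1, a chain of the cartilage fibril collagen XI. COL11A1 had 18.0, 16.0 and 16.2 CPM in set 2, 1.42, 0.949 and 0.978 CPM in libraries labelled set 1, and 3.51, 3.85 and 2.98 CPM in the control. Its rise of 4.60-fold in set 2 (2.20 ± 0.136, adjusted p = 5.2e-24) was the largest of any tested collagen, and in libraries labelled set 1 it fell by 1.57 ± 0.212 (adjusted p = 1.8e-09). COL24A1, a fibrillar collagen of developing bone and cornea, had 17.9, 22.2 and 21.9 CPM in set 2, 6.85, 5.50 and 5.38 CPM in libraries labelled set 1, and 5.19, 6.64 and 5.30 CPM in the control. It rose 3.42-fold in set 2 (1.78 ± 0.117), while libraries labelled set 1 overlapped the control (0.10 ± 0.139, adjusted p = 0.553). COL5A3, another type V chain, had 39.0, 41.8 and 43.8 CPM in set 2, 24.9, 20.3 and 21.4 CPM in libraries labelled set 1, and 19.2, 20.6 and 20.8 CPM in the control. It rose 1.94-fold in set 2 (0.95 ± 0.0735). Its call in libraries labelled set 1 (0.18 ± 0.0790, adjusted p = 0.0428) was lost under 8 of 17 alternatives and came to 0.10 (adjusted p = 0.352) without set 1 replicate 1.

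COL11A2, another chain of collagen XI, was higher than control in both comparisons. It had 3.95, 4.81 and 5.61 CPM in set 2, 4.11, 2.50 and 3.47 CPM in libraries labelled set 1, and 2.15, 1.82 and 2.09 CPM in the control (1.16 ± 0.207 in set 2, adjusted p = 1.1e-06, and 0.78 ± 0.216 in libraries labelled set 1, adjusted p = 0.00154). COL27A1, a fibrillar collagen of growing cartilage, was the exception of its class, with 61.9, 62.1 and 63.1 CPM in set 2, 80.7, 74.9 and 71.9 CPM in libraries labelled set 1, and 86.6, 90.0 and 88.0 CPM in the control. Set 2 was lowest and the groups did not overlap. COL27A1 fell by 0.58 ± 0.0451 in set 2 and by 0.16 ± 0.0439 in libraries labelled set 1 (adjusted p = 4.2e-19 and 0.00103). COL2A1, the collagen of cartilage fibrils, was not tested, with no IMR90 group mean above 0.123 CPM.

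Collagen VI genes led the collagens of the control per length and had the lowest median change of any class in set 2 (−1.17). Its microfibrils are built from the chains of COL6A1 and COL6A2, neighbours on chromosome 21 (chr21:45981770-46005050 and chr21:46098112-46132848, both on the plus strand), and COL6A3 (chr2:237324003-237414328, minus strand). COL6A1 had 1411, 1378 and 1440.3 CPM in set 2, 3571, 3499 and 3523 CPM in libraries labelled set 1, and 4358, 4327 and 4370.1 CPM in the control. COL6A2 had 1683, 1652 and 1712 CPM in set 2, 2345, 2219.9 and 2260.2 CPM in libraries labelled set 1, and 3546, 3488 and 3500.4 CPM in the control. COL6A3 had 2294, 2337 and 2249 CPM in set 2, 3504, 3440.4 and 3403 CPM in libraries labelled set 1, and 4874, 4841 and 4891 CPM in the control. For all 3 chains set 2 was lowest and the control highest, with no overlap. In set 2 COL6A1 fell by 1.71 ± 0.0174, COL6A2 by 1.14 ± 0.0183 and COL6A3 by 1.17 ± 0.0168 on the log2 scale (adjusted p = 3.0e-59 or lower). In libraries labelled set 1 the falls were 0.25 ± 0.0168, 0.57 ± 0.0181 and 0.44 ± 0.0166 (adjusted p = 2.6e-21 or lower), so the chain that fell most in set 2 was the one that fell least there. COL6A5 and COL6A6, which encode chains that can stand in for that of COL6A3, had no IMR90 group mean above 0.160 CPM and were not tested.

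The start regions of COL6A2 and COL6A3 are shown because these genes fell by nearly the same amount in set 2 while their windows share none of the letters searched, and that of COL7A1 because it fell most among collagens over 10 CPM. Each is the 250 bases before the RefSeq start (GRCh38.p14), read 5′ to 3′ on the gene's own strand: chr21:46097862-46098111 (plus), chr2:237414165-237414414 (minus) and chr3:48595330-48595579 (minus). For COL6A3 the RefSeq start lies inside the gene as counted, which reaches position 237414328 in IMR90 and 237414375 in Huh7. The COL6A3 window therefore overlaps the counted gene. Capitals mark the TATA box letters TATAAA and the GC box letters GGGCGG on either strand.
COL6A2: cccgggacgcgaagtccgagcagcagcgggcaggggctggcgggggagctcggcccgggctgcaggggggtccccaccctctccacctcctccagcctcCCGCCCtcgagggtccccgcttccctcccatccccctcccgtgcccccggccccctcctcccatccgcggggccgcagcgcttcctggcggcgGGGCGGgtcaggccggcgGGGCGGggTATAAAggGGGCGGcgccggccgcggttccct
COL6A3: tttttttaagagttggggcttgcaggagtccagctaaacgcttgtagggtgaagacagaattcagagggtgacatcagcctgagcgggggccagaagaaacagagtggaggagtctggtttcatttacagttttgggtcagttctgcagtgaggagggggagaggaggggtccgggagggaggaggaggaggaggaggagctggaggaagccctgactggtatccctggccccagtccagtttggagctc
COL7A1: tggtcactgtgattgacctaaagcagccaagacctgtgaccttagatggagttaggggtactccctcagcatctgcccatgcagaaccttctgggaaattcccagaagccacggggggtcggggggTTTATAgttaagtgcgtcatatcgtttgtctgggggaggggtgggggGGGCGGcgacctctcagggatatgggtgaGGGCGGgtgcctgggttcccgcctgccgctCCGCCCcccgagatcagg
The COL6A2 window holds 1 TATAAA and 4 GGGCGG, that of COL7A1 1 and 3, and that of COL6A3 neither. These letters, with CCAAT and the AP-1 site TGANTCA, were searched on both strands of all 35116 such windows. TATAAA stood in 10.7% of them, CCAAT in 32.0%, GGGCGG in 42.6% and TGANTCA in 6.57%. RefSeq windows were matched by symbol for 32 of the 44 collagens, and of their 44 windows 8 held TATAAA, 12 CCAAT, 24 GGGCGG and 1 TGANTCA. A match describes the letters and is not a site shown to be used. COL1A1, COL1A2, COL2A1, COL3A1, COL5A2, COL6A1, COL6A5, COL8A1, COL9A3, COL14A1, COL20A1 and COL22A1 had no window in the table.

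The basement membrane genes split. Of 6 tested in set 2, COL4A1, COL4A2 and COL4A5 were higher, COL4A6 and COL18A1 lower, and COL15A1 at 0.406 CPM was not called. Over all genes tested, 33.2% were higher and 34.1% lower, so nothing particular to this class follows from these counts. COL4A1 (minus strand) and COL4A2 (plus strand) encode the common collagen IV chains and start back to back on chromosome 13. The 126 bases between their RefSeq starts (chr13:110307158-110307283, GRCh38.p14, plus strand) are shown because both genes start at its ends and changed unequally. As counted, however, COL4A2 starts at position 110305812, inside the span of COL4A1, so the counted span of COL4A2 covers this stretch. Capitals mark CCAAT and GGGCGG.
COL4A1-COL4A2: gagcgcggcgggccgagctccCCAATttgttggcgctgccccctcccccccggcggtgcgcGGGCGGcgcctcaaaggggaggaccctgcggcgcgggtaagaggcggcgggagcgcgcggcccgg
COL4A1 had 787, 812 and 800.0 CPM in set 2, 489, 495 and 501 CPM in libraries labelled set 1, and 434, 437 and 440.5 CPM in the control. COL4A2 had 792, 786 and 801 CPM in set 2, 592, 565 and 579.6 CPM in libraries labelled set 1, and 654, 652 and 653 CPM in the control. Set 2 was highest for both genes, whereas libraries labelled set 1 lay above the control for COL4A1 and below it for COL4A2. COL4A1 rose 1.73-fold in set 2 (0.79 ± 0.0229) and 1.18-fold in libraries labelled set 1 (0.24 ± 0.0232). COL4A2 rose 1.15-fold in set 2 (0.20 ± 0.0220) and fell by 0.12 ± 0.0222 in libraries labelled set 1 (adjusted p = 4.8e-06). Exons of COL4A2 overlap the antisense genes COL4A2-AS1 and COL4A2-AS2, whose reads the counting could not separate.

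COL4A5 and COL4A6, on the X chromosome, start back to back as well, 379 bases apart at the nearer of the COL4A6 starts in RefSeq. Their chains join in basement membranes of skin and smooth muscle. COL4A5 had 96.3, 98.6 and 90.9 CPM in set 2, 33.1, 32.8 and 30.4 CPM in libraries labelled set 1, and 54.9, 53.3 and 58.7 CPM in the control. COL4A6 had 5.32, 5.07 and 4.36 CPM in set 2, 1.75, 1.95 and 2.10 CPM in libraries labelled set 1, and 7.96, 6.74 and 8.23 CPM in the control. Set 2 was highest for COL4A5, whereas the control was highest for COL4A6. In set 2 COL4A5 rose 1.61-fold (0.69 ± 0.0483) while COL4A6 fell by 0.72 ± 0.152 (adjusted p = 2.7e-05). In libraries labelled set 1 they fell by 0.74 ± 0.0550 and 1.92 ± 0.176, the second being the largest fall of any tested collagen there (adjusted p = 1.9e-15). COL18A1, whose tail is released as endostatin, an inhibitor of vessel growth, had 142, 128 and 132 CPM in set 2, 115, 110.0 and 113 CPM in libraries labelled set 1, and 162, 155 and 158 CPM in the control. It was lower in both (−0.32 ± 0.0355 in set 2 and −0.43 ± 0.0360 in libraries labelled set 1), and its exons overlap SLC19A1 on the opposite strand. COL4A3 and COL4A4, chains of the kidney filter, were not tested, with no IMR90 group mean above 0.145 CPM.

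Among the other classes, 3 of 12 tested genes were higher and 7 lower in set 2, and 1 was higher and 7 lower in libraries labelled set 1. Over all genes tested, 33.2% were higher and 34.1% lower in set 2, and 27.3% and 26.5% in libraries labelled set 1. COL7A1 (chr3:48564073-48595329) encodes the anchoring fibrils that fasten epithelium to the tissue beneath. COL7A1 had 159.9, 165 and 169.7 CPM in set 2, 601, 578 and 569 CPM in libraries labelled set 1, and 731, 727 and 727 CPM in the control. Set 2 stood far below both other groups. COL7A1 fell by 2.23 ± 0.0263 in set 2 (4.68-fold lower, adjusted p = 1.0e-67) and by 0.27 ± 0.0237 in libraries labelled set 1 (adjusted p = 5.1e-16).

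The fibril-associated collagens sit on the surface of fibrils, and the members of this class went different ways. COL12A1 had 203, 204 and 195 CPM in set 2, 61.2, 63.3 and 65.5 CPM in libraries labelled set 1, and 152, 147 and 139 CPM in the control. COL16A1 had 69.6, 73.5 and 72.7 CPM in set 2, 51.2, 51.8 and 51.4 CPM in libraries labelled set 1, and 109.8, 99.5 and 94.8 CPM in the control. Set 2 was thus highest for COL12A1, which rose 1.30-fold (0.38 ± 0.0348), and below control for COL16A1, which fell by 0.58 ± 0.0455. Both fell in libraries labelled set 1, by 1.15 ± 0.0392 and 0.92 ± 0.0473. COL22A1, a collagen of tissue junctions, had 0.0527, 0.157 and 0.381 CPM in set 2, 2.14, 1.65 and 1.57 CPM in libraries labelled set 1, and 1.94, 1.77 and 1.95 CPM in the control. It fell by 3.31 ± 0.442 in set 2 (adjusted p = 6.4e-10) from few counts, and libraries labelled set 1 overlapped the control (−0.031 ± 0.304, adjusted p = 0.941). COL9A2, a chain of the cartilage collagen IX, was not called in either comparison with control. Nor was COL28A1, which was not assigned to the fibril-associated collagens here. Their highest group means were 0.782 and 0.566 CPM, both in set 2.

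The network collagen genes COL8A1 and COL10A1 and the transmembrane collagen gene COL13A1 were lowest in libraries labelled set 1. COL8A1, a collagen of vessel walls, had 236, 246 and 244 CPM in set 2, 132, 136 and 133 CPM in libraries labelled set 1, and 259.9, 257 and 257 CPM in the control. COL10A1, known from hypertrophic cartilage, had 6.85, 7.47 and 8.77 CPM in set 2, 3.94, 3.75 and 3.77 CPM in libraries labelled set 1, and 12.7, 12.8 and 11.4 CPM in the control. COL13A1, which helps to hold cells to their matrix, had 30.9, 35.9 and 34.4 CPM in set 2, 15.5, 17.7 and 18.5 CPM in libraries labelled set 1, and 39.3, 41.2 and 40.2 CPM in the control. For all 3 genes the control was highest and no groups overlapped. COL8A1 fell by 0.18 ± 0.0290 in set 2 and 0.89 ± 0.0305 in libraries labelled set 1, COL10A1 by 0.76 ± 0.119 in set 2 and 1.63 ± 0.133 in libraries labelled set 1, and COL13A1 by 0.34 ± 0.0673 in set 2 and 1.16 ± 0.0734 in libraries labelled set 1 (adjusted p = 1.0e-05 or lower). COL8A2, the partner chain of COL8A1, was lower in set 2 (−1.08 ± 0.369, adjusted p = 0.00807) and in libraries labelled set 1 (−0.96 ± 0.368, adjusted p = 0.0229). Both calls were lost without control replicate 2 (adjusted p = 0.0671 in set 2 and 0.140 in libraries labelled set 1), and that in libraries labelled set 1 also without its replicate 2 (0.132).

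COL17A1, a transmembrane collagen of the epithelial hemidesmosome, was among the few collagens above control in both comparisons. It had 1.84, 1.41 and 2.40 CPM in set 2, 1.42, 2.55 and 1.71 CPM in libraries labelled set 1, and 0.681, 0.214 and 1.02 CPM in the control (1.43 ± 0.359 in set 2, adjusted p = 3.4e-04, and 1.59 ± 0.356 in libraries labelled set 1, adjusted p = 1.1e-04), with both above every control library. COL25A1, a transmembrane collagen of neurons, averaged 0.729 ± 0.219 CPM in set 2, 0.0826 ± 0.0761 CPM in libraries labelled set 1 and 0.223 ± 0.261 CPM in the control. Its call in set 2 (1.61 ± 0.592, adjusted p = 0.0135) rested on these few counts. It was lost with DESeq2 (adjusted p = 0.0530) and without control replicate 2, control replicate 3 or set 2 replicate 3 (0.086 to 0.111), and the log2 fold change came to 3.09 without control replicate 1.

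**Figure D2:**
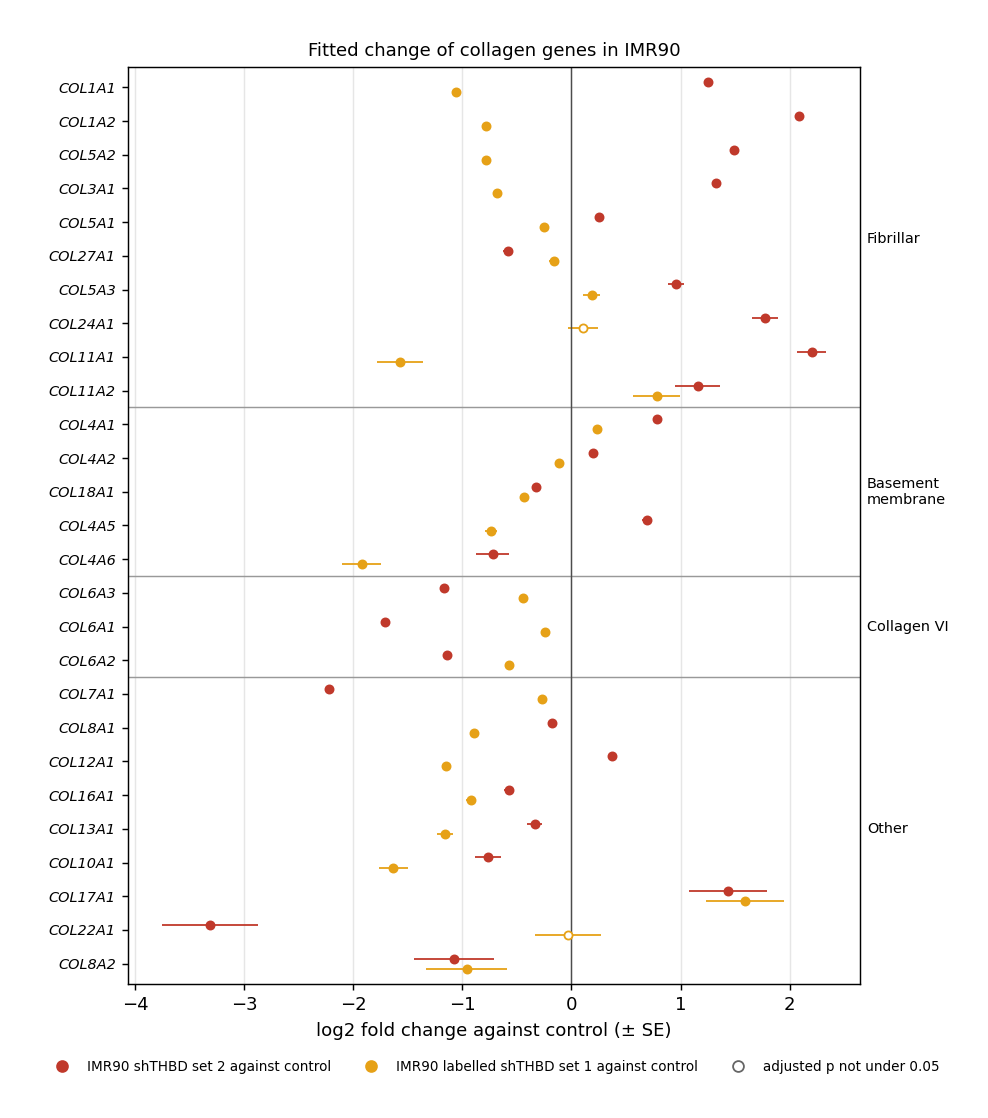
Fitted log2 fold change (± SE) against the shared control for the 27 tested collagens that averaged 1 CPM or more in some group, with set 2 above and libraries labelled set 1 below in each row; open points were not called. Collagen VI lies left of 0 in both, whereas COL1A2 lies at 2.08 in set 2 and −0.79 in libraries labelled set 1.

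Set 2 and libraries labelled set 1 were also compared with each other in the same fit. The contrast leaves out the control means, but the control libraries still enter the filter, the scaling and the estimate of the spread. Of 31 tested collagens, 20 were higher and 6 lower in set 2, against 35.6% and 33.9% of all genes tested. By at least 2-fold 11 were higher and 3 lower, against 10.3% and 10.8%. Counted as higher were COL9A2 (mean 0.782 CPM in set 2, 0.245 CPM in libraries labelled set 1) and COL25A1 (0.729 and 0.0826 CPM). Genes that passed the filter only through the group in which they were high had to differ. These shares therefore describe the tested genes only. The collagen median was 0.55, beside 0.030 for all genes. Among called collagens that averaged 1 CPM or more in either group, those furthest above in set 2 were COL11A1 (3.77 ± 0.168, 13.6-fold), COL1A2 (2.87 ± 0.0207, 7.32-fold) and COL1A1 (2.30 ± 0.0189, 4.94-fold). The genes lower in set 2 were COL22A1 (−3.28 ± 0.445), COL7A1 (−1.96 ± 0.0264), COL6A1 (−1.46 ± 0.0173), COL6A3 (−0.73 ± 0.0167), COL6A2 (−0.57 ± 0.0183) and COL27A1 (−0.42 ± 0.0459). By class, 8 of 10 fibrillar genes, 5 of 6 basement membrane genes and 7 of 12 others were higher in set 2, and 3 of 3 collagen VI genes were lower. The call of COL18A1 (0.11 ± 0.0367, adjusted p = 0.00600) was lost without set 1 replicate 2 (adjusted p = 0.0707) or set 2 replicate 1 (0.07, adjusted p = 0.112). That of COL9A2 (1.54 ± 0.552, adjusted p = 0.0109) was lost without set 1 replicate 2, set 1 replicate 3 or set 2 replicate 3 (adjusted p = 0.0673 to 0.0683).

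Collagen genes as a whole took a smaller share of the raw counts in set 2 than in the control, with a different make-up. Longer genes give more counts, so these shares are not shares of transcript molecules. They made up 1.81% ± 0.00360 of all gene counts in set 2, 1.34% ± 0.0207 in libraries labelled set 1 and 1.90% ± 0.00806 in the control (SD, n = 3 each). The difference from control was −0.0898 percentage points in set 2 and −0.560 points in libraries labelled set 1, with no overlap between groups. With TMM-scaled library sizes the difference in set 2 was −0.193 points. The exact two-sided permutation test over libraries gave p = 0.1 for each pair, the smallest p that 3 against 3 can give (0.133 adjusted over the 4 pairs of both lines). Fibrillar genes held 1.01% ± 0.00445 of all counts in set 2, 0.203% ± 0.00446 in libraries labelled set 1 and 0.363% ± 0.000860 in the control. Collagen VI held 0.539% ± 0.00176 in set 2, 0.925% ± 0.0143 in libraries labelled set 1 and 1.27% ± 0.00663 in the control. Within the collagen counts, fibrillar genes were therefore 56.1% in set 2, 15.2% in libraries labelled set 1 and 19.1% in the control, while collagen VI was 29.8% of them in set 2, 69.2% in libraries labelled set 1 and 67.1% in the control. In bulk libraries such as these, fewer cells making a collagen and less RNA per cell cannot be told apart.

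**Figure D3:**
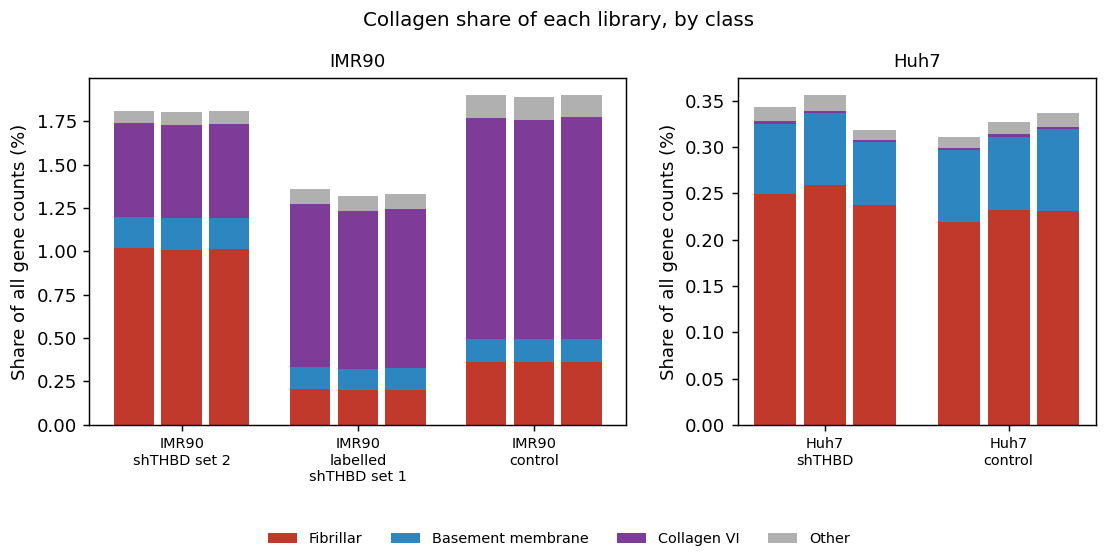
Share of all gene counts taken by the collagen genes in each library, stacked by class, with IMR90 on the left and Huh7 on the right on separate axes that start at 0. In set 2 the fibrillar part was 1.01%, against 0.363% in the control, and the collagen VI part 0.539%, against 1.27%.

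Levels of different chains were compared per length, as CPM per kilobase of exon. On this scale the leading collagen of set 2 was COL1A1 at 488 ± 4.40, followed by COL1A2 at 326 ± 2.08, COL6A2 at 315 ± 5.60 and COL6A1 at 255 ± 5.67. In libraries labelled set 1 the order was COL6A1 at 638 ± 6.65, COL6A2 at 426 ± 11.9, COL6A3 at 160.3 ± 2.37 and COL1A1 at 89.8 ± 2.27. In the control COL6A1 stood at 786 ± 4.07, COL6A2 at 658 ± 5.72, COL6A3 at 226 ± 1.17 and COL1A1 at 194 ± 1.23. COL1A1 ranked 51 among all genes on this scale in set 2, 394 in libraries labelled set 1 and 159 in the control, whereas COL6A1 ranked 112 in set 2, 46 in libraries labelled set 1 and 35 in the control.

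Chains that join in 1 trimer did not keep constant proportions. The ratio of COL1A1 to COL1A2 per length was 1.50 ± 0.0132 in set 2, 2.22 ± 0.0158 in libraries labelled set 1 and 2.67 ± 0.0482 in the control. For COL5A1 to COL5A2 it was 0.470 ± 0.00989 in set 2, 1.60 ± 0.0904 in libraries labelled set 1 and 1.11 ± 0.0385 in the control, so COL5A2 exceeded COL5A1 per length in set 2 and not in the other groups. For COL4A1 to COL4A2 it was 1.33 ± 0.0282 in set 2, 1.12 ± 0.0348 in libraries labelled set 1 and 0.880 ± 0.00750 in the control. The ratio of COL4A5 to COL4A6 was 15.2 ± 1.08 in set 2, 13.1 ± 1.74 in libraries labelled set 1 and 5.72 ± 0.407 in the control. Both type IV ratios were thus higher in set 2 than in the control. In collagen VI, COL6A1 to COL6A2 stood at 0.807 ± 0.00367 in set 2, 1.50 ± 0.0260 in libraries labelled set 1 and 1.19 ± 0.00938 in the control. COL6A3 to COL6A1 stood at 0.419 ± 0.0174 in set 2, 0.251 ± 0.00244 in libraries labelled set 1 and 0.288 ± 0.000125 in the control. Groups did not overlap for any of these ratios except COL4A5 to COL4A6 between set 2 and libraries labelled set 1. Exact permutation tests gave p = 0.2 for that pair and p = 0.1, the smallest possible, for the 17 other pairs of IMR90 groups. Adjusted over the 21 pairs compared in both lines, the p-values were at least 0.111.

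**Figure D4:**
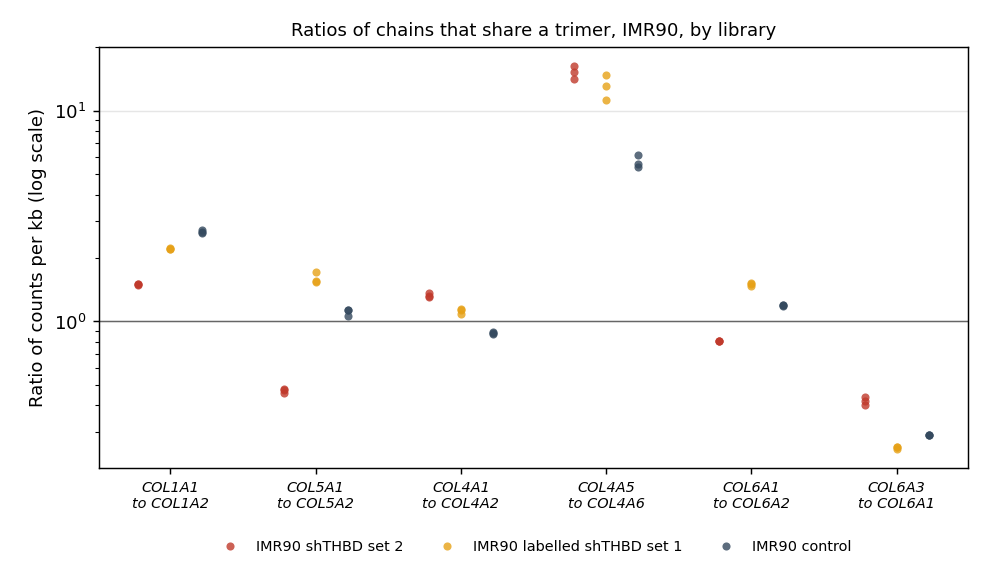
Ratio of counts per kilobase between chains of 1 trimer in each IMR90 library, on a log axis with a line at 1. The 3 set 2 libraries lie below 1 for COL5A1 to COL5A2 (mean 0.470) and for COL6A1 to COL6A2 (mean 0.807), where the other groups lie above 1.

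Huh7 expressed another range of collagens. Here 14 of the 44 reached 10 CPM in a group, 14 reached 1 to 10 CPM, and 16 stayed under 1 CPM. The 16 were COL4A2, COL5A1, COL6A3, COL6A5, COL6A6, COL8A1, COL9A1, COL10A1, COL13A1, COL15A1, COL19A1, COL20A1, COL22A1, COL23A1, COL25A1 and COL26A1. COL6A5 and COL13A1 had 0 counts in every Huh7 library, which allows up to 3 counts per library, or 0.119 to 0.133 CPM in shTHBD and 0.150 to 0.155 CPM in the control, by counting error only. After the filter 29 were tested.

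In Huh7 the share of tested collagens called was close to that of all genes. Of the 29, 9 were higher and 7 lower in shTHBD, against 25.9% and 27.3% of 17474 genes tested (31.0% and 24.1% of the collagens). By at least 2-fold 2 were higher and 3 lower, against 5.27% and 8.37%. Counted as lower were COL2A1 (mean 0.385 CPM in shTHBD, 1.01 CPM in the control) and COL14A1 (0.801 and 3.09 CPM). As in IMR90, genes that passed the filter only through the group in which they were high had to differ. These shares therefore describe the tested genes only. The collagen median was 0.061 and that of all genes 0.0020. None of the 16 called collagens had overlapping groups, and overlap was not counted over all genes here either. The spread between libraries was wider than in IMR90 (8.20%). Beside these values, fibroblast markers summed to 1159 to 1206 CPM in shTHBD, against 712 to 773 CPM in the control, with VIM at 683 CPM in shTHBD and 378 CPM in the control and THY1 at 0 in shTHBD. Hepatocyte markers summed to 4952 to 5134 CPM in shTHBD, against 7092 to 7341 CPM in the control, and epithelial markers to 2799 to 2865 CPM in shTHBD, against 4615 to 4847 CPM in the control. Smooth muscle and stellate cell markers summed to 57.1 to 59.4 CPM in shTHBD, against 50.5 to 55.8 CPM in the control, and endothelial and leukocyte markers to at most 15.7 CPM in any Huh7 library. Their part in the collagen results was not tested.

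Collagen genes took 0.339% ± 0.0191 of all counts in Huh7 shTHBD and 0.325% ± 0.0133 in the control (exact permutation p = 0.4), with fibrillar genes at 0.248% ± 0.0111 in shTHBD and 0.227% ± 0.00707 in the control. Per length the leading collagen was COL5A2 in both groups, at 237 ± 9.03 CPM per kilobase in shTHBD and 235 ± 8.71 in the control. It had 1732, 1806 and 1675 CPM in shTHBD, against 1647, 1765 and 1748 CPM in the control. COL1A1 had 243, 248 and 226 CPM in shTHBD, against 242, 228 and 244 CPM in the control. Both genes overlapped between groups and were not called (−0.014 ± 0.0481 and −0.022 ± 0.0564, adjusted p = 0.831 and 0.771). COL1A2, by contrast, had 399.9, 422 and 368 CPM in shTHBD, against 186, 194 and 187 CPM in the control. It rose 2.06-fold (1.04 ± 0.0562, adjusted p = 8.6e-17), so the ratio of COL1A1 to COL1A2 per length was 0.686 ± 0.0150 in shTHBD and 1.43 ± 0.0841 in the control, with no overlap. COL5A1, the partner of COL5A2 in collagen V, had no Huh7 group mean above 0.118 CPM and was not tested.

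COL11A1 rose most in Huh7, with 34.5, 33.9 and 31.6 CPM in shTHBD, against 11.99, 13.5 and 11.7 CPM in the control (2.63-fold, 1.40 ± 0.105, adjusted p = 3.4e-13). COL24A1 had 11.5, 15.5 and 13.4 CPM in shTHBD, against 7.88, 8.29 and 7.92 CPM in the control (0.72 ± 0.144), and COL3A1 averaged 9.72 ± 1.11 CPM in shTHBD, against 4.99 ± 0.835 CPM in the control (0.93 ± 0.175). All 3 genes were above control in every shTHBD library. COL27A1 went the other way, with 56.2, 54.1 and 41.1 CPM in shTHBD, against 88.4, 99.7 and 105 CPM in the control (−0.98 ± 0.0830, adjusted p = 6.2e-12). COL2A1 had 0.332, 0.555 and 0.267 CPM in shTHBD, against 1.02, 1.15 and 0.880 CPM in the control. Its call (−1.41 ± 0.533, adjusted p = 0.0257) was lost under 6 of 14 alternatives, 5 of which left out a library (all but shTHBD replicate 2, adjusted p = 0.0524 to 0.105). COL5A3 and COL11A2 overlapped between groups at means of at most 1.83 CPM and were not called.

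The basement membrane genes of Huh7 changed unequally, as they did in IMR90. COL4A1 fell most of all tested collagens, with 2.37, 1.74 and 1.42 CPM in shTHBD, against 10.2, 10.3 and 11.7 CPM in the control (5.93-fold lower, −2.57 ± 0.203, adjusted p = 1.2e-12). COL18A1, the highest of the class per length, had 464, 478 and 414 CPM in shTHBD, against 560.4, 559 and 651 CPM in the control. It too was lower in every shTHBD library (−0.41 ± 0.0583, adjusted p = 3.0e-07). COL4A5 had 193, 195 and 184 CPM in shTHBD, against 139, 153 and 149.9 CPM in the control, and COL4A6 had 90.5, 88.2 and 75.6 CPM in shTHBD, against 56.9, 59.4 and 60.8 CPM in the control. These chains rose together, by 0.34 ± 0.0582 and 0.49 ± 0.0720, and their ratio per length was 1.77 ± 0.117 in shTHBD and 1.95 ± 0.0596 in the control. COL4A2, COL4A3 and COL4A4 overlapped between groups, with means between 0.438 and 4.16 CPM, and were not called. COL15A1 had no group mean above 0.0837 CPM.

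Collagen VI was scarce in Huh7. COL6A1 had 30.6, 27.7 and 22.5 CPM in shTHBD, against 21.2, 25.7 and 26.3 CPM in the control, and COL6A2 averaged 1.88 ± 0.562 CPM in shTHBD, against 1.30 ± 0.321 CPM in the control. Neither was called (0.11 ± 0.107 and 0.50 ± 0.372, adjusted p = 0.399 and 0.270). The ratio of COL6A1 to COL6A2 per length overlapped between groups (14.7 ± 2.13 in shTHBD and 20.0 ± 7.35 in the control, exact permutation p = 0.4). COL6A3 was at 0 counts in 5 of the 6 libraries.

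Of the other classes, COL12A1 had 56.4, 59.7 and 48.0 CPM in shTHBD, against 27.0, 27.3 and 28.9 CPM in the control, a rise of 1.93-fold (0.95 ± 0.0869). COL7A1 had 10.7, 13.3 and 8.45 CPM in shTHBD, against 18.2, 18.4 and 22.1 CPM in the control (−0.88 ± 0.135). COL12A1 was thus higher and COL7A1 lower in every shTHBD library. COL9A2 had 59.0, 70.3 and 37.3 CPM in shTHBD, against 46.1, 56.8 and 66.6 CPM in the control, and was not called (−0.054 ± 0.125, adjusted p = 0.741). COL14A1, a fibril-associated collagen, had 1.66, 0.476 and 0.267 CPM in shTHBD, against 3.15, 4.05 and 2.07 CPM in the control (−1.97 ± 0.430, adjusted p = 2.2e-04, −3.05 without shTHBD replicate 1). COL21A1, of the same class, had 2.45, 3.45 and 3.25 CPM in shTHBD, against 1.22, 1.85 and 1.55 CPM in the control (0.96 ± 0.302, adjusted p = 0.00811). COL14A1 was thus lower and COL21A1 higher in every shTHBD library. COL16A1, at 5.66 ± 1.65 CPM in shTHBD, against 9.63 ± 2.46 CPM in the control, was lower (−0.79 ± 0.192). COL28A1, at 3.61 ± 0.586 CPM in shTHBD, against 1.90 ± 0.104 CPM in the control, was higher (0.90 ± 0.269). COL8A2, COL9A3 and COL17A1 overlapped between groups and were not called.

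**Figure D5:**
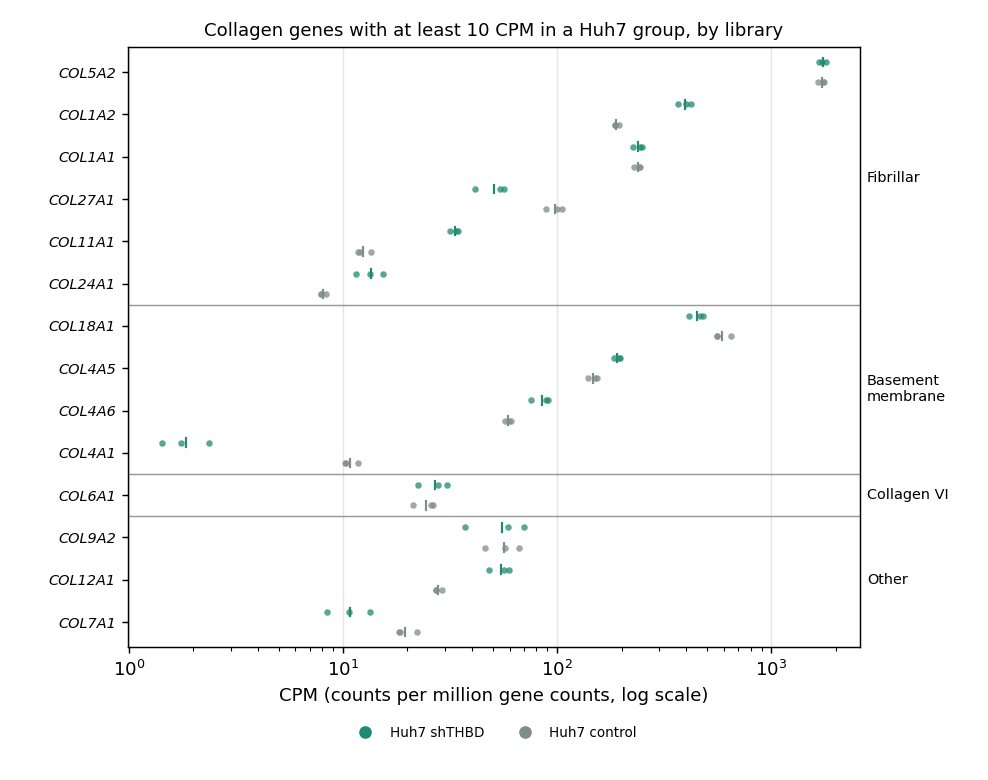
CPM of each Huh7 library on a log axis for the 14 collagens that averaged 10 CPM or more in some group, by class, with shTHBD above the control in each row; ticks are group means (n = 3 each). COL1A1 overlaps between groups at means of 239 CPM in shTHBD and 238 CPM in the control, whereas COL1A2 stands at 397 CPM in shTHBD, against 189 CPM in the control.

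The change in IMR90 set 2 was set against the change in Huh7 in a joint fit of genes that passed the filter in both lines. Each change was taken within its own table, and line, inducer of senescence and experiment cannot be told apart. Of 23 collagens tested, 12 had a higher change in IMR90 set 2 than in Huh7 and 5 a lower one, against 26.5% and 29.2% of 12645 genes. All 9 fibrillar genes tested were among the 12, including COL5A2 with a difference of 1.47 ± 0.0521 (adjusted p = 3.9e-22), COL1A1 with 1.24 ± 0.0501, COL1A2 with 1.01 ± 0.0512 and COL5A3 with 1.49 ± 0.299 on the log2 scale. COL27A1, which fell in both lines, was among them because it fell less in set 2 (0.37 ± 0.0981). For COL5A3 and COL11A2 the Huh7 side rested on means of at most 1.83 CPM, with no call there. The largest difference was that of COL4A1 (3.32 ± 0.117, adjusted p = 3.8e-22), which rose in set 2 and fell in Huh7. The change was lower in set 2 for COL6A1 (−1.85 ± 0.0811), COL6A2 (−1.68 ± 0.190), COL7A1 (−1.38 ± 0.106), COL4A6 (−1.25 ± 0.140) and COL12A1 (−0.61 ± 0.0812). COL6A2 rested on Huh7 means of 1.88 CPM in shTHBD and 1.30 CPM in the control. COL18A1 and COL16A1, lower than control in both lines, did not differ in their change by the test (0.060 ± 0.0701 and 0.18 ± 0.168, adjusted p = 0.489 and 0.391), which does not show that they changed alike. The calls of COL3A1 (0.37 ± 0.119) and COL4A2 (1.10 ± 0.314) were lost with limma voom (adjusted p = 0.0538 and 0.0546). That of COL3A1 was also lost without Huh7 control replicate 1 or 2, and that of COL4A2 without Huh7 control replicate 2 (0.58, adjusted p = 0.219).

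Genes that build, secrete, bind and break down collagen were counted in 7 lists, chosen with results of these data known. Over all genes tested, 33.2% were higher and 34.1% lower in set 2, and 27.3% and 26.5% in libraries labelled set 1. In Huh7 shTHBD the shares were 25.9% and 27.3%. The counts of every list below are to be read beside these shares, and several lie near them. Of 20 genes for chain modification and folding, 3 were higher and 12 lower in set 2, 5 and 9 in libraries labelled set 1, and 4 and 5 in Huh7 shTHBD. The list's median log2 fold change was −0.26 in set 2, −0.093 in libraries labelled set 1 and −0.022 in Huh7 shTHBD. In set 2 the largest rises were in P3H2, a prolyl hydroxylase (0.68 ± 0.0459), and FKBP14, a folding enzyme (0.37 ± 0.0334), and the largest falls in PPIB, the cyclophilin of collagen folding (−1.06 ± 0.0290), and COLGALT1, a galactosyltransferase (−0.88 ± 0.0263). PLOD2, the lysyl hydroxylase of crosslinks (1.11 ± 0.0175), and SERPINH1, the collagen chaperone HSP47 (0.25 ± 0.0236), rose in libraries labelled set 1, while P3H3 (−1.68 ± 0.0480) and FKBP14 (−0.72 ± 0.0361) fell. In Huh7 P3H4 (0.42 ± 0.0718) and FKBP14 (0.39 ± 0.0707) rose, while PPIB (−1.25 ± 0.0846) and SERPINH1 (−0.98 ± 0.0584) fell.

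For secretion, 7 of 13 were higher and 4 lower in set 2, 3 and 8 in libraries labelled set 1, and 7 and 3 in Huh7. Its median log2 fold change was 0.10 in set 2, −0.11 in libraries labelled set 1 and 0.35 in Huh7 shTHBD. CREB3L1, a transcription factor that drives collagen I, rose in set 2 (0.97 ± 0.0319), as did TRAPPC2, a part of the export machinery (0.89 ± 0.0939), while CREB3L2 (−1.22 ± 0.0389) and the coat protein SEC24D (−0.33 ± 0.0323) fell. TRAPPC2 (0.45 ± 0.0982) and the GTPase SAR1A (0.18 ± 0.0324) rose in libraries labelled set 1, and KLHL12, which enlarges the carriers of procollagen (−0.80 ± 0.0641), and CREB3L2 (−0.48 ± 0.0369) fell. In Huh7 TRAPPC2 (0.66 ± 0.0724) and LARP6, which binds collagen I mRNA (0.65 ± 0.0826), rose, and CREB3L2 (−0.49 ± 0.0667) and SAR1B (−0.42 ± 0.0829) fell.

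For propeptide processing and crosslinking, 2 of 12 tested were higher and 7 lower in set 2, 4 and 4 in libraries labelled set 1, and 1 and 5 in Huh7. Median log2 fold changes were −0.33 in set 2, −0.050 in libraries labelled set 1 and −0.22 in Huh7 shTHBD. The lysyl oxidase genes LOXL4 (1.23 ± 0.0281) and LOXL1 (0.60 ± 0.0624) rose in set 2, and LOXL3 (−1.51 ± 0.132) and the transglutaminase TGM2 (−0.88 ± 0.0226) fell. LOX (1.07 ± 0.0265) and LOXL4 (0.23 ± 0.0294) rose in libraries labelled set 1, and LOXL3 (−0.47 ± 0.119) and PCOLCE, an enhancer of propeptide removal (−0.28 ± 0.0635), fell. In Huh7 the protease gene TLL1 rose (0.64 ± 0.0789), and LOX (−1.61 ± 0.0691) and TGM2 (−0.77 ± 0.0875) fell.

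Among fibril-binding matrix genes, 8 of 11 tested were higher and 3 lower in set 2, 2 and 5 in libraries labelled set 1, and 5 and 3 of 10 in Huh7. The list's median log2 fold change was 0.68 in set 2, −0.093 in libraries labelled set 1 and 0.28 in Huh7 shTHBD. LUM (lumican) averaged 138 ± 4.93 CPM in set 2 and 26.6 ± 2.35 CPM in the control (2.30 ± 0.0523), and DCN (decorin) 94.4 ± 5.69 CPM in set 2 and 21.3 ± 0.880 CPM in the control (2.06 ± 0.0609). Both encode proteoglycans that coat fibrils, and 3 of this list, DCN, LUM and FBN1, are also among the fibroblast markers. POSTN (−1.71 ± 0.0700) and BGN (−1.49 ± 0.0354) fell in set 2. SPARC rose in libraries labelled set 1 (0.11 ± 0.0191), while POSTN (−2.06 ± 0.0734) and fibronectin, FN1 (−0.56 ± 0.0145), fell. In Huh7 LUM (0.42 ± 0.0598) and FBN1 (0.37 ± 0.0725) rose, and FN1 (−0.38 ± 0.0464) and THBS1 (−0.37 ± 0.0577) fell.

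Of the collagen receptors, 2 of 9 tested were higher and 6 lower in set 2, 3 and 5 in libraries labelled set 1, and 2 and 2 of 8 in Huh7. Its median log2 fold change was −0.41 in set 2, −0.17 in libraries labelled set 1 and 0.20 in Huh7 shTHBD. DDR1 rose in set 2 (0.31 ± 0.0520), and the adhesion receptor ADGRG1 (−2.66 ± 0.115) and the integrin ITGA1 (−1.78 ± 0.0470) fell. ADGRG1 (1.29 ± 0.0755) and ITGA2 (0.27 ± 0.0228) rose in libraries labelled set 1, and DDR2 (−1.52 ± 0.0345) and ITGA11 (−1.29 ± 0.0819) fell. In Huh7 ITGB1 (0.56 ± 0.0521) and ITGA1 (0.29 ± 0.0704) rose, and DDR1 (−0.48 ± 0.0618) and CD44 (−0.31 ± 0.0690) fell.

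For collagen breakdown, 2 of 9 tested were higher and 7 lower in set 2, 4 and 5 in libraries labelled set 1, and 2 and 1 of 4 in Huh7. Median log2 fold changes were −0.46 in set 2, −0.11 in libraries labelled set 1 and 0.18 in Huh7 shTHBD. ADAMTS1 (1.15 ± 0.0369) and cathepsin K, CTSK (0.39 ± 0.103), rose in set 2, while the gelatinase MMP9 (−2.42 ± 0.128) and the membrane collagenase MMP14 (−0.72 ± 0.0170) fell. MMP9 (3.86 ± 0.0608) and ADAMTS1 (1.08 ± 0.0372) rose in libraries labelled set 1, and MRC2, an uptake receptor for collagen (−0.97 ± 0.0243), and FAP (−0.50 ± 0.0394) fell. In Huh7 MRC2 (1.66 ± 0.111) and MMP14 (0.27 ± 0.0555) rose, and ADAMTS1 (−0.59 ± 0.0602) fell.

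The TGF-beta axis, a main inducer of fibrillar collagen, held 16 genes, of which 7 were higher and 6 lower in set 2, 6 and 4 in libraries labelled set 1, and 11 and 4 in Huh7. The list's median log2 fold change was 0.10 in set 2, 0.046 in libraries labelled set 1 and 0.36 in Huh7 shTHBD. The ligand gene TGFB1 averaged 131 ± 8.71 CPM in set 2 and 325 ± 2.61 CPM in the control (−1.39 ± 0.0312). The coreceptor TGFBR3 rose (2.30 ± 0.0953) and LTBP2, a latent TGF-beta binding protein, fell (−1.32 ± 0.0279). TGFBR3 (0.85 ± 0.109) and TGFBR2 (0.55 ± 0.0229) rose in libraries labelled set 1, and LTBP1 (−0.81 ± 0.0260) and SMAD3 (−0.58 ± 0.0449) fell. In Huh7 TGFBR3 (1.56 ± 0.0693) and LTBP1 (0.98 ± 0.0613) rose, whereas CCN2, a known target, fell (−1.61 ± 0.0531). Every gene named from these lists passed an adjusted p of 0.05 over all genes of its fit and averaged 10 CPM or more in a group. Between set 2 and libraries labelled set 1, the counts higher and lower in set 2 were 7 and 6 for the TGF-beta axis, 5 and 11 for modification and folding, 8 and 3 for secretion, 4 and 6 for processing and crosslinking, 8 and 1 for fibril-binding matrix, 3 and 5 for receptors, and 4 and 3 for breakdown. Over all genes tested, the shares in this comparison were 35.6% higher and 33.9% lower.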

How the data were processed

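RNA of 15 human libraries was sequenced (9 IMR90, 6 Huh7), and the deposited files are 2 tables of raw counts per gene. Per the submitters' processing notes, the build was GRCh38 and the tools were fastp, STAR and featureCounts. The authors counted paired fragments over exons with featureCounts 2.0.1 and GENCODE 38 in IMR90, per the file headers. The version and annotation behind the Huh7 counts are not stated in the labels or headers. The RNA kit named in the labels' protocols keeps no strand.

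From these counts, CPM was computed over all gene counts of a library, and levels per kilobase with the deposited exon lengths. Each line was fitted with edgeR 4.0.16 (R 4.3.3; filterByExpr, TMM scaling, quasi-likelihood test, group as the only factor), and a joint fit over genes passing in both lines gave the difference between changes. A gene was called at a Benjamini-Hochberg adjusted p under 0.05 over all genes tested. Errors beside log2 fold changes are standard errors derived from the F statistic and are approximate, and errors beside levels are SDs over 3 libraries. Shares and chain ratios were compared by exact two-sided permutation over libraries (scipy 1.17.1). The fit was tried on counts simulated with planted 2-fold changes and the same spread for every gene. That does not show how it behaves where the spread differs between genes. Alternatives used DESeq2 1.42.0, limma 3.58.1 (voom), leave-one-out fits, a replicate block, and other filters and scalings.

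The members, classes, marker lists and pathway lists were chosen with earlier results of these data known. Values per library are given for collagens averaging 10 CPM or more in a group of the line, and for the 3 largest rises and falls among called collagens averaging 1 CPM or more. For each pathway list the 2 largest rises and falls among called genes of 10 CPM or more are named. A gene that this rule would name in the TGF-beta list is not reported here. Replicates of a group differed by more than counting noise in every pair (chi-square per degree of freedom 1.92 to 12.5). Intervals and floors cover counting error only.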

Additional observations from a re-analysis of the deposited data

Results flagged for a closer look

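For 17 collagens the change in IMR90 set 2 differed from the change in Huh7 by the interaction test of the joint fit (edgeR, Benjamini-Hochberg adjusted p under 0.05). Values are the log2 change in set 2 minus that in Huh7 shTHBD, and what line, inducer and experiment each add cannot be told apart.

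The differences were positive for 12 genes. COL4A1 stood apart at 3.32, with COL4A2 at 1.10 and COL4A5 at 0.32 in the same class. The fibrillar genes gave 1.49 for COL5A3, 1.47 for COL5A2, 1.38 for COL11A2, 1.24 for COL1A1, 1.02 for COL24A1, 1.01 for COL1A2, 0.77 for COL11A1, 0.37 for COL3A1 and 0.37 for COL27A1. They were negative for COL6A1 (−1.85), COL6A2 (−1.68), COL7A1 (−1.38), COL4A6 (−1.25) and COL12A1 (−0.61). COL4A6 fell in set 2 and rose in Huh7, whereas COL4A5 rose in both. COL12A1 rose in both lines, by more in Huh7, and COL7A1 fell in both lines, by more in set 2. The calls of COL3A1 and COL4A2 did not hold under every alternative tried. Those of COL4A2, COL5A3, COL6A2 and COL11A2 rested on Huh7 means of at most 1.88 CPM.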

How the results depend on the processing

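No result changed direction under an alternative. Asking for at least 2-fold besides the adjusted p left 15 collagens called in set 2 against control (28 without it), 7 in libraries labelled set 1 (25), 14 between both sets (26) and 5 in Huh7 (16). Leaving out 1 library at a time gave 27 to 29 calls in set 2 against control, 23 to 25 in libraries labelled set 1, 25 to 28 between both sets, 15 to 17 in Huh7 and 16 to 18 for the difference between lines. The replicate block left these 4 counts at 28, 25, 26 and 16, and gave 18 rather than 17 for the difference between lines. Same-numbered libraries were not treated as pairs, and their deviations correlated at −0.0524 to 0.0225. Counting noise lowers such correlations, so a pairing is not excluded. Of 112 called single results, 103 held under every alternative other than the 2-fold rule and 9 were lost under at least 1, of which 4 only when a library was left out. Scaling without the collagen genes was added after the data had been seen.

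The difference in collagen share (percentage points) was −0.0740 in set 2 against control without mitochondrially encoded genes and −0.193 with TMM-scaled library sizes. By the same alternatives it was −0.586 and −0.512 for libraries labelled set 1 against control, and 0.512 and 0.319 for set 2 against those libraries. The cause was not tested. Leaving out libraries gave −0.0944 to −0.0868 for set 2 against control, −0.572 to −0.553 for libraries labelled set 1 against control, 0.463 to 0.482 for set 2 against libraries labelled set 1, and 0.00641 to 0.0252 for Huh7 shTHBD against control.

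Depth limits the 17 collagens under 1 CPM in IMR90 and the 16 in Huh7, whose absence is not shown. Tests rest on 3 libraries a group, and separate cultures are not stated. THBD went against the label of set 1 and was not detectable in Huh7.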
